A study of Mus musculus with 12 samples.

Results

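The cells described here are macrophages of mouse breast tumors that carry transcripts of *Lyve1*, *Cd209f*, *Cd209g* or *Fcna* together with *Pf4*. A cell was counted as one of them when it had at least 200 detected genes, at least 2 transcript molecules of *Pf4*, at least 1 molecule in the sum of *Lyve1*, *Cd209f*, *Cd209g* and *Fcna*, fewer than 2 of *Gpnmb* and 0 of *Mki67*. By this rule 582 of the 11639 CD11c-selected cells were members (5.0%, exact 95% CI 4.61 to 5.41), among 34445 cells in the whole series. They are called resident-like macrophages, or members, below, because several of the genes that mark them are known from macrophages resident in healthy tissue. Where the cells came from and how long they had stayed in the tumor was not measured. They were compared with the 6379 other cells of the same matrix that held at least 1 molecule each of *Csf1r* and *C1qa*, called other macrophages.

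The study compared tumors of MMTV-PyMT mice, in which a viral oncogene driven by the mouse mammary tumor virus promoter gives rise to spontaneous mammary tumors, with 2 forms of protease-activated receptor 2 (PAR2). PyMT-PAR2WT mice carry normal PAR2, and PyMT-PAR2G37I mice carry the G37I mutant, which is resistant to signaling by coagulation factor Xa. All tumors came from adult female mice of matched age on a B6(Cg) background that carried the PyMT transgene and received no further treatment. Cells of late-stage tumors were bound to CD11c beads, frozen, thawed and run on the 10x Genomics platform, in 3 PyMT-PAR2WT and 3 PyMT-PAR2G37I samples. A second matrix held CD4/CD8-selected cells of mid-size tumors from 3 and 3 samples of the same genotypes.

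Both deposited matrices pool their 6 samples, and the barcodes name neither a sample nor a genotype. Each matrix was therefore treated as 1 sample, genotypes were not compared here, and no p-value is given. The barcode list of the CD11c-selected cells falls into 6 alphabetical stretches, which were not linked to samples. They held 13314063 to 24231244 molecules each and are used here only to show how far values vary within the matrix. Stretch 4 stood apart with 360 cells and a median of 31161.5 molecules per cell, against 6290 to 9285.5 in the other stretches. Levels are unique molecular identifier (UMI) counts summed over a group of cells per 1000000 UMIs of that group (CPM), and all intervals cover counting error only. Because the rule and every gene below were read from the same cells, values in the CD11c-selected cells are a description. A UMI level per 1000000 cannot tell a gene made in more cells from one made more strongly in each cell.

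Macrophages that settle in connective tissue and along vessels are known in many organs, the mammary gland included, and are often recognized by LYVE1, a receptor for the matrix sugar hyaluronan, and by FOLR2, a folate receptor. CD209 proteins are C-type lectins that bind sugars on microbes and host cells, *Fcna* encodes ficolin A, a soluble lectin that starts the complement cascade, and *Pf4* encodes platelet factor 4, a chemokine best known from platelets. Such macrophages take up debris, hemoglobin and apoptotic cells, and are usually poorer in MHC class II than macrophages that have recently arisen from monocytes.

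*Cd209f* and *Cd209g*, which helped to choose the cells, are neighbors at the far end of the Cd209 cluster on chromosome 8, at positions 4102787 to 4105835 on the minus strand and 4134098 to 4137707 on the plus strand (GENCODE M21, GRCm38). Their promoters, 250 bases before and 50 after the RefSeq start site (GRCm38.p6), are shown because they resemble each other far more than any others of the family. With *Cd209f* at chr8:4105715-4106014 (minus strand) and *Cd209g* at chr8:4134486-4134785 (plus strand), 258 of 300 aligned bases were identical (86%), against 148 to 185 bases in the other 20 pairs of Cd209 promoters. Capitals mark TGAGTCA, the sequence bound by AP-1 factors, and TATAAA, the TATA box, in this order in both.
Cd209f: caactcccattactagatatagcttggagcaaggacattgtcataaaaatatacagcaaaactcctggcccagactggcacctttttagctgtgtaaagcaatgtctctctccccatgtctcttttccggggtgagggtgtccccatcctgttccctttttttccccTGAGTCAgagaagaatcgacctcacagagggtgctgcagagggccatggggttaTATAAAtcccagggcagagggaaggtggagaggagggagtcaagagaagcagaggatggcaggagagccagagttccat
Cd209g: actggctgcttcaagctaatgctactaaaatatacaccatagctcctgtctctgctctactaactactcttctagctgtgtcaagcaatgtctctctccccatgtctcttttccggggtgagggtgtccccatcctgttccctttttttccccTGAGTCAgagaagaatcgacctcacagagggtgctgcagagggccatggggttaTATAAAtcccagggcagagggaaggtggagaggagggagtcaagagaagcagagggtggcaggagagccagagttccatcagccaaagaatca

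The AP-1 sequence began 83 bases before the start site of *Cd209f* and 97 before that of *Cd209g*, and the TATA box 29 and 43 bases before. On either strand, TGAGTCA was found in 5.2% and TATAAA in 13.6% of all 32851 promoters of this length, in 6.17% and 10.3% of the 973 promoters of genes at least 2-fold higher in resident-like macrophages, and in 4.64% and 7.88% of the 1422 promoters of genes at least 2-fold lower. The AP-1 sequence was chosen after the promoters had been seen, and a match describes letters only. The transcripts of *Cd209f* and *Cd209g* shared 490 stretches of 31 bases (39.5% of those in *Cd209f* and 43.0% in *Cd209g*). Reads within these stretches cannot be assigned to either gene by sequence, so that the counts of both may be affected. No other pair of Cd209 genes shared any such stretch.

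The genes of the rule itself varied widely among the 582 cells. *Fcna* was detected in 63.2%, *Lyve1* in 58.6%, *Cd209f* in 43.3% and *Cd209g* in 42.6% of them. All 4 genes were found together in 106 cells, 3 in 73, 2 in 163, and only 1 in 240. Levels were 275 CPM in resident-like against 6.05 in other macrophages for *Lyve1*, 518 against 7.03 for *Cd209f*, 299 against 4.90 for *Cd209g*, 236 against 5.6 for *Fcna* and 1930 against 295 for *Pf4*, as the rule sets. At the edge of the rule, 50 members had exactly 2 molecules of *Pf4* and 143 a sum of exactly 1 over the 4 genes. Just outside lay 46 cells with 1 molecule of *Pf4* and at least 1 of the 4 genes, 1191 cells with enough *Pf4* but none of the 4 genes, 33 cells left out by *Gpnmb* alone and 83 by *Mki67* alone.

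The defining transcripts of macrophages were present in the cells. *Csf1r*, the receptor for the macrophage growth factor, and *C1qa*, a chain of complement C1q, were both detected in 556 of 582 cells (95.5%), although the rule did not ask for them. *Adgre1*, which encodes F4/80, reached 498 CPM against 300 in other macrophages, and *Mertk*, a receptor for apoptotic cells, 64.2 against 31. Median depth was 8899.5 UMIs per cell in resident-like and 9492 in other macrophages, with 2663.5 and 2661 genes detected, and mitochondrial transcripts made up a median of 5.80% and 4.71%. Platelets and lymphatic endothelium, which are known to carry *Pf4* and *Lyve1*, left little trace. Of 12 platelet markers 9 were at 0, including *Gp9*, *Gp1bb*, *Gp1ba* and *Gp6*, and the list summed to 2.87 CPM, between 0 and 7.5 in the stretches, against 5.66 CPM, between 4.11 and 6.69, in other macrophages. *Ppbp*, the tested platelet marker that was detected, was at 1.97 against 1.08 CPM. Of the lymphatic endothelial markers *Prox1*, *Mmrn1* and *Sox18* were at 0, and the list sum of 43.1 against 82.5 CPM was almost all *Pdpn*, which macrophages also express.

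The summed markers of other cell types in the digest were lower in resident-like than in other macrophages, except those of B cells. None of the tested blood endothelial, T cell, epithelial, fibroblast, neutrophil, dendritic or mast cell markers was at least 2-fold higher, and 7 of 8, 0 of 1, 4 of 8, 3 of 7, 4 of 6, 9 of 11 and 1 of 1 were at least 2-fold lower. Over all genes 8.1% were at least 2-fold higher and 12.8% lower. A list with 1 tested gene cannot be set against these shares. The sums of these lists, against those in other macrophages, were 13 and 30.5 CPM for blood endothelium, 10.3 and 14.7 for T cells, 202 and 307 for epithelium, 18.4 and 38.8 for fibroblasts, 86.5 and 123 for neutrophils, 98.4 and 205 for dendritic cells and 4.08 and 10.4 for mast cells and basophils. The T cell genes *Cd3d*, *Cd3e*, *Trac*, *Cd8a* and *Lck* were at 0, and the epithelial sum ran from 53.7 to 684 CPM over the stretches, with 69.1% of the *Epcam* molecules in 1 cell. B cell markers summed to 234 against 99.1 CPM, between 179.5 and 260.3 and between 63.8 and 126 in the stretches. Of the 2 tested, *Ighm*, an immunoglobulin heavy chain gene, was at 218 against 89.3 CPM (2.44-fold) and *Cd79b*, a chain of the B cell receptor, at 15.7 against 8.73 (1.80-fold), while *Cd79a* and *Ms4a1* were at 0. The part of such transcripts in the results below was not tested.

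Over all genes, 12168 had at least 50 UMIs in the 2 groups together and were compared. At least 2-fold higher in resident-like macrophages were 985 (8.1%) and at least 2-fold lower 1558 (12.8%), of which 86 had no UMI in resident-like macrophages. The median over all genes was -0.08 on the log2 scale. Of the higher genes 719 were higher in each of the 6 stretches, and for 569 the lowest stretch of resident-like macrophages lay above the highest stretch of the others. The corresponding counts among the lower genes were 1053 and 732. Without stretch 4 there were 967 higher and 1546 lower genes. Since resident-like macrophages were compared with a mixture, 597 and 893 genes passed when only other macrophages with at least 2 molecules of *Pf4* were used.

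**Figure D1:**
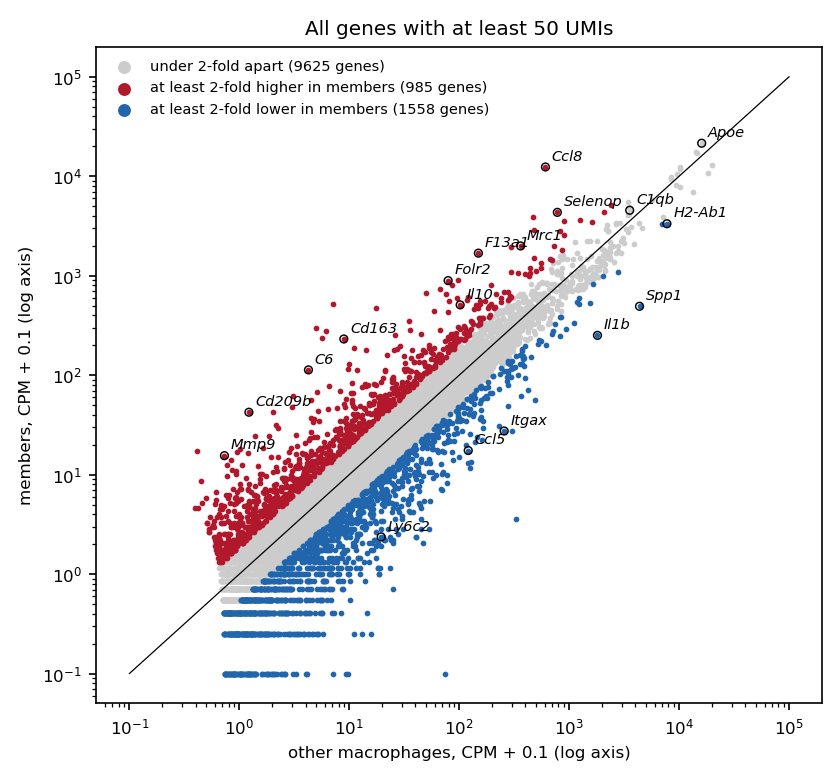
Level of each of the 12168 genes in other macrophages (horizontal, CPM plus 0.1, log axis) and in resident-like macrophages (members, vertical, same scale), with genes at least 2-fold higher in red, at least 2-fold lower in blue and the rest in gray. Named genes are circled: *Ccl8* lies at 12404 against 609 CPM, while *Itgax* lies at 27.4 against 256. Genes of the rule are included.

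*Ccl8* was the transcript that set these cells apart in amount. It encodes a chemokine that attracts monocytes and T cells. Its level ran from 6546 through a median of 12655 to 16064 CPM in the 6 stretches of resident-like macrophages, and from 205 through 751 to 1256 CPM in the other macrophages. The ranges did not overlap, and the sums were 12404 and 609 CPM, 20.4-fold (95% CI 20.2 to 20.6). *Ccl8* was the 6th most abundant transcript of the cells, between mitochondrial *mt-Co1* and *mt-Atp6*, and the 582 cells held 62.6% of all *Ccl8* molecules in the matrix. In 70 T cells of the same matrix, a cell type not known to make it in quantity, its level was 15.2 CPM. After each cell had been thinned to 2000 UMIs, *Ccl8* was detected in 86.3% of 564 resident-like macrophages, in 15.9% of 5719 other macrophages and in 3.08% of 65 T cells. Unthinned shares were 92.1%, 26.9% and 8.57%, at median depths of 8899.5, 9492 and 4484 UMIs.

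The *Ccl8* promoter is shown as that of the most abundant selective transcript. It lies at chr11:82114935-82115234 (plus strand, GRCm38.p6), downstream of *Ccl2*, *Ccl7* and *Ccl12* in the same cluster, and was identical to that of *Ccl12* at 180 of 300 bases. Capitals mark TATAAA, 32 bases before the start site, TGCTGA, the core bound by MAF factors, read on the plus strand at -152 and on the minus strand at -100, and GAGGAA, the core bound by PU.1, read on the minus strand at -240. The promoter of *Fcna*, at chr2:25627925-25628224 (minus strand), is given beside it, with TGCTGA at -107 and -90 and GAGGAA at -182, -169, -163 and 42.
Ccl8: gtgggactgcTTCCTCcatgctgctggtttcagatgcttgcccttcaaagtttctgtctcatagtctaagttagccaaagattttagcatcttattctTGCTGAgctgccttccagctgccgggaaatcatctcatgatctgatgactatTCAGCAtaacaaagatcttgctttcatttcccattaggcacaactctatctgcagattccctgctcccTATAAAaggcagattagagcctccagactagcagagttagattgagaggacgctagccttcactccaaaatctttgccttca
Fcna: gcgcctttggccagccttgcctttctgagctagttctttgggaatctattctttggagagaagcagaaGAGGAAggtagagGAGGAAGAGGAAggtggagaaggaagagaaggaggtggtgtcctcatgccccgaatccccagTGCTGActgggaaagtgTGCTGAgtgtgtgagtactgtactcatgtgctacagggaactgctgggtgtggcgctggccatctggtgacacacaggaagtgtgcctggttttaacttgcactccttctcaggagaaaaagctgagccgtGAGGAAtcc

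TGCTGA occurred in 19.5% of all promoters, 19.8% of those of higher genes and 16.7% of those of lower genes, and GAGGAA in 28.3%, 30.2% and 29.3%. *Maf* itself, which encodes a transcription factor of mature macrophages, was at 485 to 692 CPM in the stretches of resident-like macrophages and at 60.0 to 136 in the others, 6.94-fold in sum.

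The chemokine genes next to *Ccl8* were high as well, and so were several chemokines encoded elsewhere. Of 21 chemokine ligand genes 10 were at least 2-fold higher and 5 lower, beside 8.1% and 12.8% of all genes. The list median was 0.96 on the log2 scale against -0.08 over all genes. Without stretch 4, 13 were higher. *Ccl7* ranged from 2831 through 4224 to 4904 CPM over the stretches and from 299 through 453 to 992 CPM in other macrophages (8.45-fold in sum, 95% CI 8.32 to 8.59). *Ccl2*, the main chemoattractant of monocytes, was at 2855 against 481 CPM (5.94-fold), and *Ccl12* at 559 against 173 (3.23-fold). *Ccl24*, which attracts eosinophils, was at 112 against 11.6 CPM (9.61-fold). *Cxcl13*, a chemoattractant of B cells, was at 68.0 against 5.03 CPM, but 1 cell gave 28.2% of its molecules, and its fold of 13.5 became 22.2 without stretch 3 and 8.78 without stretch 5. Lower were *Cxcl9*, which attracts activated T cells (2.27 against 40.2 CPM), *Cxcl16* (278 against 709) and *Ccl5* (17.4 against 121).

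**Figure D2:**
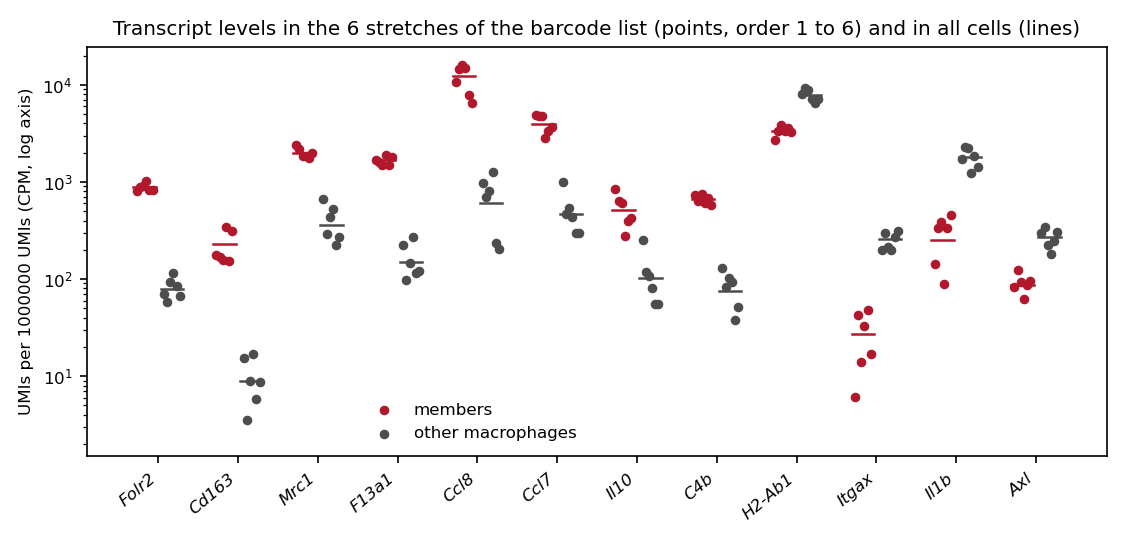
Levels of 12 genes in CPM (log axis) in resident-like macrophages (members, red) and other macrophages (gray), 1 point for each of the 6 stretches of the barcode list and a line for all cells together. For each gene drawn the 2 sets of points do not overlap: *Folr2* lies at 796 to 1018 against 57.5 to 114 CPM, *H2-Ab1* at 2717 to 3852 against 6512 to 9278.

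Genes known from resident macrophages were high almost as a block. Of 20 listed genes 16 were at least 2-fold higher and none lower, with a list median of 2.90 on the log2 scale. Over all genes 8.1% were higher. The list was chosen with earlier results of these data known, so this count is a description. *Folr2*, the folate receptor, ran from 796 through 849 to 1018 CPM over the stretches and from 57.5 through 77.5 to 114 in other macrophages (11.3-fold, 95% CI 10.9 to 11.7). *Cd163*, the receptor for hemoglobin bound to haptoglobin, ran from 154 through 172 to 341 CPM against 3.57 through 8.83 to 16.9 (26.2-fold, 95% CI 23.9 to 28.7). Neither range overlapped that of the other macrophages, although *Cd163* was detected in only 33.3% of the resident-like cells and *Folr2* in 91.4%. *F13a1*, the A chain of coagulation factor XIII, was at 1687 against 149 CPM (11.3-fold), and *Cbr2*, a carbonyl reductase, at 664 against 49.3 (13.5-fold). *Selenop*, which encodes the plasma selenium carrier, was at 4340 against 781 CPM (5.56-fold).

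The 4 listed genes that stayed under 2-fold were *Slc40a1*, *Cd209a*, *Stab1* and *Mgl2*, at 1.87-, 1.24-, 1.64- and 1.52-fold. *Slc40a1*, which encodes the iron exporter ferroportin, was at 11.9 CPM against 6.37, and 1 cell held 35.4% of its molecules. *Timd4*, a receptor for phosphatidylserine often used to mark long-lived macrophages, was low in absolute terms, at 13 against 4.06 CPM (3.20-fold), and was detected in 6.53% of the cells. Its stretches ran from 3.21 to 16.3 CPM and overlapped those of other macrophages, 0.220 to 9.55 CPM. *Vsig4*, a complement receptor of resident macrophages, was detected in 3.61% of cells and was at 16.6 against 0.851 CPM. Its fold of 19.5 became 99.4 without stretch 4 and 11.6 without stretch 5.

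Lectins of the Cd209 family that the rule did not use followed *Cd209f* and *Cd209g* unevenly. *Cd209b* was at 21.1 through 30.4 to 74.3 CPM over the stretches and at 0.169 through 0.996 to 3.84 in other macrophages (37.7-fold, 95% CI 29.5 to 48.5). *Cd209d* was at 180 against 14.2 CPM (12.7-fold), *Cd209e* at 10.7 against 0.838 (12.8-fold) and *Cd209c* at 2.27 against 0.903. *Cd209a*, known from dendritic cells, was at 64.7 against 52.1 CPM, and its stretches overlapped, at 27.9 to 129 and 30.0 to 114 CPM. Over 18 C-type lectin genes 8 were at least 2-fold higher and 2 lower, *Clec5a* and *Clec1b*. Over all genes 8.1% were higher and 12.8% lower, so the lower count was near the share of all genes. *Clec10a*, a receptor for galactose-type sugars, was at 732 against 66.4 CPM (11-fold), while its neighbor *Mgl2*, which shares 13.4% of the 31-base stretches of the *Clec10a* transcript, was at 332 against 218. *Mrc1*, the mannose receptor CD206, was at 1742 through 1925 to 2372 CPM over the stretches and at 222 through 360 to 662 in other macrophages (5.51-fold).

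Scavenger and efferocytosis genes divided by member. Of 22 measured 8 were at least 2-fold higher and 6 lower, beside 8.1% and 12.8% of all genes. The list median of 0.13 was near that of all genes. *Gas6*, the protein that links phosphatidylserine to receptors of the TAM family, was at 802 against 85.5 CPM (9.38-fold), and its relative *Pros1* at 137 against 39.0 (3.51-fold). Among the receptors they bind, *Mertk* was 2.07-fold higher (1.93-fold without stretch 4), whereas *Axl* was at 62.7 to 124 CPM over the stretches against 180 to 345 in other macrophages (0.32-fold). *Mfge8*, another bridging molecule, was at 13.9 against 87.2 CPM, with 26.1% of its molecules in 1 cell. *Cd5l*, at 15.4 against 34.0 CPM, was 4.74-fold higher in resident-like macrophages when cells with *Gpnmb* or *Mki67* were left out of the comparison.

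Complement was the list with the largest share of higher genes after the resident genes. Of 19 measured 12 were at least 2-fold higher and 1, the complement receptor chain gene *Itgax*, lower. Over all genes 8.1% were higher and 12.8% lower. The list median was 1.2 on the log2 scale. *C4b*, a component of the classical and lectin pathways, was at 573 through 659 to 745 CPM over the stretches and at 38.3 through 87.3 to 130 in other macrophages (8.69-fold, 95% CI 8.35 to 9.04). *C6*, a part of the membrane attack complex, had the highest fold of the genes outside the rule with at least 50 CPM, 27.2-fold (95% CI 23.8 to 31.1), at 113 against 4.15 CPM. The receptors *C3ar1* and *C5ar1* were 2.30- and 2.28-fold higher. *C1qb* and *C1qc*, at 4555 and 3268 CPM, were 1.28- and 1.47-fold, and *C3* was at 28.6 against 35.3 CPM.

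Of 18 genes listed for iron and heme handling 9 were at least 2-fold higher and none lower, beside 8.1% and 12.8% of all genes. The 9 include *Hpgd* (2.08-fold), which is not itself an iron or heme gene. Only 5 were higher against other macrophages with at least 2 molecules of *Pf4*. In 4 other settings, among them the comparison without *Gpnmb* and *Mki67* cells, 1 gene was lower. *Hmox1*, which breaks down heme, was at 769 through 1205 to 1757 CPM over the stretches and at 261 through 404 to 668 in other macrophages (2.76-fold). *Blvrb*, the next enzyme of heme breakdown, was 2.12-fold (1.94-fold without stretch 4), and *Tfrc*, the transferrin receptor, 4.11-fold. *Cp*, which encodes ceruloplasmin, was at 113 against 20.9 CPM (5.41-fold, 8.14-fold without stretch 3). The ferritin genes pointed the other way without reaching 2-fold, *Fth1* at 10751 against 18372 CPM (0.59-fold) and *Ftl1* at 8197 against 9384 (0.87-fold). The summed level of the list was therefore lower, 22016 against 29231 CPM, while its median was 0.98 on the log2 scale.

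**Figure D3:**
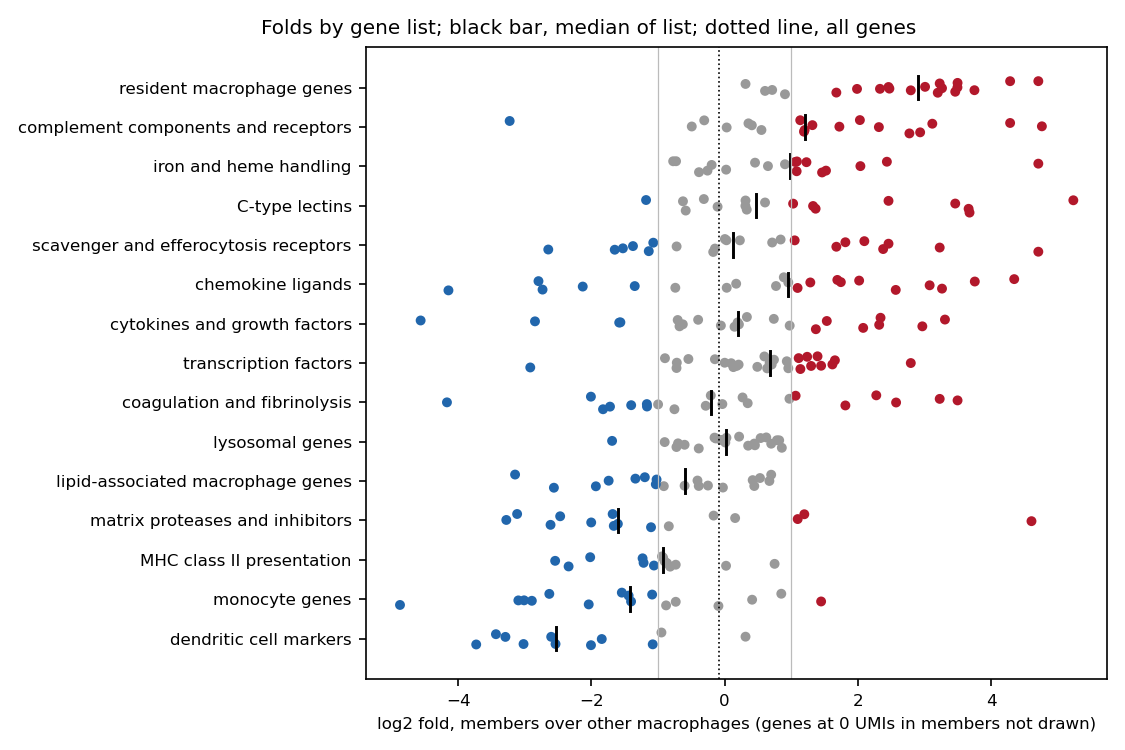
Log2 fold of resident-like over other macrophages (horizontal) for each gene of 15 gene lists (rows), red at 1 or above, blue at -1 or below, with the median of each list as a black bar and that of all genes, -0.08, as a dotted line. The resident macrophage genes center at 2.90, the complement genes at 1.2, the MHC class II presentation genes at -0.93 and the monocyte genes at -1.42.

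Antigen presentation genes were low. None of 14 genes of MHC class II presentation was at least 2-fold higher and 6 were lower, beside 8.1% and 12.8% of all genes. The list includes *Ciita*, *Ctss* and the costimulators *Cd80*, *Cd86* and *Cd40*, and its median was -0.93 on the log2 scale. *H2-Ab1* was at 2717 through 3356 to 3852 CPM over the stretches and at 6512 through 7598 to 9278 in other macrophages (0.43-fold, 95% CI 0.42 to 0.44). *Cd74*, the invariant chain, was at 6954 against 13353 CPM (0.52-fold, 0.49-fold without stretch 4), and *H2-Aa* at 3920 against 7142. The costimulators *Cd86* and *Cd40* were at 1.01- and 1.68-fold. The low level depended on the comparison: against other macrophages without *Gpnmb* and *Mki67* 10 of the 14 genes were at least 2-fold lower, and against those with at least 2 molecules of *Pf4* only 1. Within the other macrophages *H2-Ab1* was at 10270 CPM in cells with fewer than 2 molecules of *Pf4*, 7288 in cells with *Pf4* but none of the 4 genes and 1446 in cells with *Gpnmb*.

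*Itgax*, which encodes the CD11c by which the cells were selected, was itself low. It was detected in 9.62% of resident-like and 65.7% of other macrophages, and its level ran from 6.05 through 25 to 47.7 CPM over the stretches against 199 through 242 to 309 (0.11-fold, 95% CI 0.09 to 0.12). In the 70 T cells of the matrix it was at 107 CPM. Thinned to 2000 UMIs, 2.84% of resident-like macrophages, 34.8% of other macrophages and 18.5% of T cells held a molecule. *Runx3*, a transcription factor of T cells and dendritic cells, was at 30.5 against 231 CPM (0.13-fold), and the dendritic cell markers *Flt3*, *Xcr1* and *Itgae* were at 0.756, 1.06 and 1.06 CPM. How many resident-like macrophages the beads left behind was not measured, so that 5.0% is a share of selected cells only.

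Beside 12.8% lower and 8.1% higher over all genes, monocyte genes were lower in 10 of 16 cases and higher in 1, *Nr4a1*. *Ly6c2*, the marker of classical monocytes, was at 2.27 against 19.4 CPM, and *Cx3cr1* at 51.7 against 137. *Ccr2*, the monocyte receptor for CCL2, was not among them, at 231 through 293 to 495 CPM over the stretches and 167 through 240 to 442 in other macrophages, ranges that overlapped (1.33-fold). *Thbs1* was at 154 against 449 CPM (0.34-fold).

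Cytokines and growth factors also divided. *Il10*, an inhibitory cytokine, was at 277 through 516 to 840 CPM over the stretches and at 55.3 through 95 to 255 in other macrophages (5.0-fold, 95% CI 4.8 to 5.2), and after thinning to 2000 UMIs was detected in 43.6% of resident-like and 11.8% of other macrophages (65.3% and 20.4% unthinned, and 2.86% of T cells). *Il1b*, the central inflammatory cytokine of the inflammasome, was at 89.1 through 335 to 453 CPM against 1226 through 1774 to 2259 (0.14-fold, 95% CI 0.13 to 0.15). Growth factors that act on epithelium, vessels or stroma were found on both sides. *Hbegf* was 9.91-fold, *Pdgfc* 7.83-fold, *Gdf15* 5.07-fold and *Igf1* 4.23-fold higher, while *Vegfa*, the main angiogenic factor, was at 66.7 against 200 CPM, with ranges of 30.0 to 108 and 85.2 to 250 that overlapped. *Retnla*, a gene of alternative activation, was at 3609 against 1246 CPM with overlapping stretches.

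Matrix proteases were mostly low, with 9 of 15 lower and 3 higher, beside 12.8% and 8.1% of all genes. Against other macrophages with at least 2 molecules of *Pf4* the counts were 9 and 1. Among the proteases the exception was *Mmp9*, gelatinase B, which was rare but at 2.22 through 16.2 to 26.5 CPM over the stretches against 0.326 through 0.516 to 1.65 (24.4-fold, 95% CI 17.2 to 35.0). *Timp2*, an inhibitor of such proteases, was 2.29-fold higher. *Mmp12* was at 55.9 against 485 CPM and *Mmp14* at 29.6 against 164. For *Mmp12* 40.5% of the molecules came from 1 cell, and its fold of 0.12 became 0.04 without stretch 5. *Mmp8*, with 4 molecules in members (0.605 against 5.87 CPM), turned to 1.09-fold when cells with *Gpnmb* or *Mki67* were left out of the comparison.

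Genes of lipid-associated macrophages, a state of lipid-laden tumor and adipose tissue cells, were at least 2-fold lower in 8 of 19 cases and higher in none. Over all genes 12.8% were lower and 8.1% higher. The list median was -0.60 on the log2 scale. The comparison held 541 cells with at least 2 molecules of *Gpnmb*, which the rule keeps out of the members. *Spp1*, osteopontin, was at 493 against 4367 CPM, but at 23079 in these cells and at 410 in those with fewer than 2 molecules of *Pf4*, and 1 resident-like cell held 34.9% of the molecules. Without *Gpnmb* and *Mki67* cells in the comparison 2 genes were lower and 2 higher, *Spp1* was at 0.94-fold, and *Fabp5*, *Arg1* and *Atp6v0d2* turned from 0.30-, 0.49- and 0.26-fold to 1.33-, 2.29- and 1.96-fold. For *Arg1* 1 cell gave 74.7% of the molecules. *Apoe*, the most abundant transcript of the cells at 21503 CPM, was 1.34-fold higher, and *Trem2* was at 316 against 420 CPM.

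Of the coagulation genes that concern the study, *F10*, which encodes factor X, was at 5.18 through 14.9 to 21.8 CPM over the stretches and at 23.0 through 45.9 to 68.7 in other macrophages (0.30-fold, 95% CI 0.24 to 0.37). *F7*, which encodes factor VII, was at 25.1 against 29.0 CPM, and *F2rl1*, the gene for PAR2, at 0.907 against 0.929, with 6 molecules in all resident-like cells. *Procr*, the endothelial protein C receptor, was at 11.9 against 42.3 CPM (0.28-fold), whereas *Thbd*, thrombomodulin, was at 76.5 against 12.8 (5.96-fold). In the list of 21 genes 6 were higher and 7 lower, beside 8.1% and 12.8% of all genes. Of 33 genes chosen from those the study names in macrophages, 6 were at least 2-fold higher, *Mrc1*, *Il10*, *Timd4*, *Nrros*, *Mertk* and *Ifi208*. Lower were 12, beside 8.1% higher and 12.8% lower over all genes. These 12 included *Havcr2* (0.15-fold), *Lag3* (0.45-fold), *Tgfbr1* (0.34-fold) and *Itgb7* (0.12-fold). *Nrros*, at 2.03-fold, was between 1.90- and 1.96-fold without stretch 2, 5 or 6. *Ifi208* was at 4.69 against 1.14 CPM (4.13-fold, 2.36-fold without stretch 4). *Mb21d1* and *Tmem173*, which encode cGAS and STING, were 1.12- and 1.47-fold.

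Smaller or uniform groups are given by their counts of genes past 2-fold, beside 8.1% higher and 12.8% lower over all genes. Interferon-induced genes were higher in 5 of 24 cases, led by *Iigp1* at 6.08-fold, and lower in none. *Iigp1* was uneven among the members, at 13.5-fold over the rest in 32 cells described below as group 5. Among immediate early and heat shock genes, which also respond to tissue digestion, 6 of 20 were higher, *Egr1* by 4.10-fold, and none lower, and their part in the other results was not tested. None of 22 lysosomal genes was higher, and their median was 0.02 on the log2 scale. Transcription factor genes were higher in 9 of 29 cases, *Id3* by 3.07-fold and *Klf2* by 2.46-fold, and lower in 1. Fc receptor genes included *Fcgrt*, the neonatal Fc receptor, at 900 against 97.8 CPM (9.19-fold) and *Fcgr2b*, the inhibitory receptor, at 2.65-fold. Of 7 Siglec genes *Siglec1* was 3.23-fold higher and 4 were lower. Cell cycle genes were lower in 11 of 16 cases, which the absence of *Mki67* in the rule favors.

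Among the 20 genes with the highest folds outside the rule and with at least 50 CPM, several belong to none of these lists. *Ednrb*, a receptor for endothelins, was at 268 through 440 to 621 CPM over the stretches and at 6.89 through 14.4 to 45.5 in other macrophages (26.9-fold, 95% CI 25.2 to 28.7). *Bmp2*, a growth factor of the TGF-beta family, was at 55.6 against 4.40 CPM (12.6-fold), *Npl*, an enzyme of sialic acid breakdown, at 252 against 25.8 (9.76-fold), *Lrg1* at 115 against 9.60 (12-fold), *Rcn3* at 187 against 11 (17-fold), *Chp2* at 61.1 against 3.01 (20.3-fold) and *Fxyd2*, a regulator of the sodium pump, at 130 against 9.86 (13.2-fold). In each of these genes all 6 stretches were higher. *Mucl1*, which is also among the 20, was higher in 3 stretches and lower in 3, with 47.4% of its molecules in 1 cell, and its fold of 12.1 became 61.6 without stretch 4. The 10 lowest folds with at least 50 CPM in other macrophages were those of *Pclaf*, *AA467197*, *Il7r*, *Klrb1b*, *Grasp*, *Top2a*, *Il1r2*, *Spint1*, *Itgax* and *Napsa*, between 0.05- and 0.11-fold. *Top2a* is a listed cell cycle gene, and the absence of *Mki67* in the rule favors low folds of such genes. One cell held 47.7% of the *Napsa* molecules, and without stretch 6 its fold was 0.06. *Pclaf*, at 18 molecules in all, was at 0.03-fold without stretch 4.

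Within the resident-like macrophages, the levels of other genes went with the summed UMIs of *Lyve1*, *Cd209f*, *Cd209g* and *Fcna*. From the 143 cells with a sum of 1 through 145 with 2 to 4 and 103 with 5 to 9 to 191 with 10 or more, *Ccl8* was at 5574, 9648, 10933 and 17716 CPM. *Folr2* was at 389, 749, 855 and 1236 CPM, and *Cd163* at 65.2, 159, 295 and 330. *H2-Ab1* ran the other way, at 5616, 3547, 3245 and 2069 CPM. *Itgax* was at 69.2, 31.6, 11.6 and 8.72 CPM, and *Il1b* at 544, 365, 171 and 73.2. *Mrc1*, at 1407, 1837, 2349 and 2251 CPM, and *Spp1*, at 875, 1198, 138 and 91.4, did not change in 1 direction throughout. Median depth was 8130, 7173, 7164 and 11167 UMIs, and stretch 4 gave 45 of the 191 cells with the highest sums. When the cells were divided into 4 groups of 145 or 146 by the same sum as a share of the UMIs of each cell, *Ccl8* was at 6387, 11495, 14295 and 19070 CPM and *H2-Ab1* at 5255, 3177, 2649 and 1641. Of the cells just outside the rule, those with 2 or more molecules of *Pf4* and none of the 4 genes continued the order. In them *Ccl8* was at 1755, *Folr2* at 131 and *H2-Ab1* at 7117 CPM. The 46 cells with 1 molecule of *Pf4* and at least 1 of the 4 genes did not. They had *Ccl8* at 2249, *Folr2* at 167 and *H2-Ab1* at 5784 CPM. Yet *Lyve1* was at 88.4 and *Cd209f* at 182 CPM there, against 28.6 and 12.6 in members with a sum of 1.

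**Figure D4:**
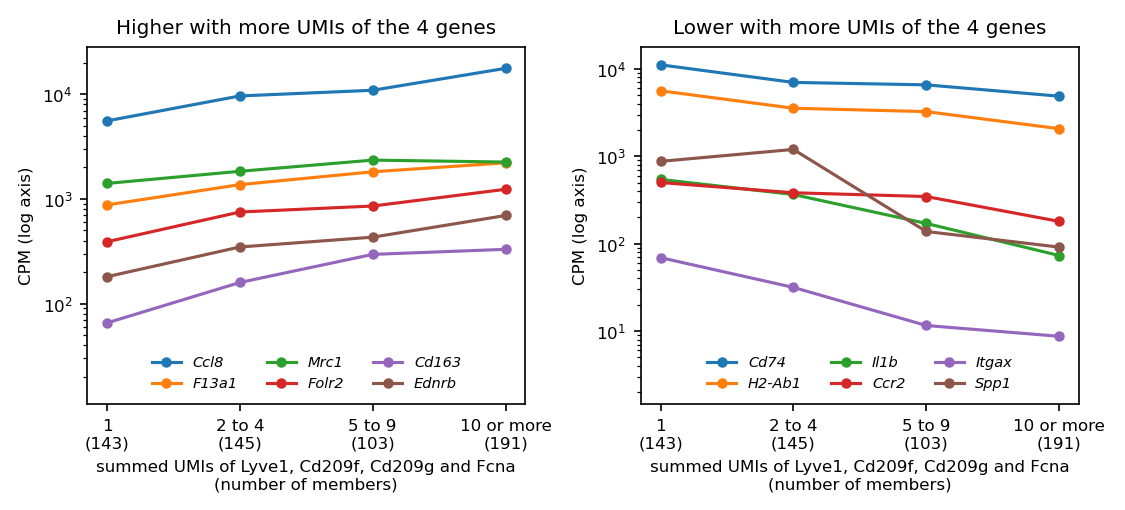
Levels in CPM (log axis) in resident-like macrophages divided by the summed UMIs of *Lyve1*, *Cd209f*, *Cd209g* and *Fcna*, with the number of cells under each group. On the left *Ccl8*, *Folr2*, *Cd163*, *F13a1* and *Ednrb* are higher in each group than in the one before, and *Mrc1* levels off. On the right *H2-Ab1*, *Cd74*, *Itgax*, *Il1b* and *Ccr2* are lower in each, and *Spp1* peaks at 1198 CPM.

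Clustered on genes outside the rule, the resident-like macrophages formed 6 groups, which are named by number because they are parts of 1 selection. Cells of group 1 (170) and group 2 (166) made up most of them. Group 1 was led by *Csn3*, at 9.29-fold over the other resident-like macrophages, and by *Wfdc18* (2.99-fold), which is among the epithelial markers counted above. Group 2 was led by heat shock and immediate early genes (*Hspa1b*, *Hspa1a*, *Egr1* and *Klf2*), with *Hspa1b* at 672 CPM against 47.8 in group 1. Group 3 (103 cells) was led by *Flrt3*, *Clec4e*, *Malt1* and *Tnip3*, with *Il1a*, *Il1b* and the listed monocyte gene *S100a4* also among its leading genes. *Lyve1* was at 212 and *Folr2* at 701 CPM there. This group had the highest level of *Retnla*, 9780 CPM, with *Ccr2* at 634, *Il1b* at 703 and *H2-Ab1* at 5508. Its *Ccl8*, at 2020 CPM, was the lowest of the groups but 1. Group 4 (88 cells) was the opposite in these genes, with *Ccl8* at 28286, *H2-Ab1* at 1266 and *Ccr2* at 83.9 CPM, and was led by *Cd209a*, *Cd209b*, *Cd209d* and *C6*. *Cxcl13* was at 278 CPM there and at most 64.4 in each other group. Group 5 (32 cells) was led by the interferon-induced genes *Cmpk2*, *Ifit2*, *Ifit3* and *Ifit1*. Group 6 (23 cells) had *Lyve1* at 2.27, *Pf4* at 461 and *Folr2* at 304 CPM beside *Spp1* at 5513, *Itgax* at 209 and *Cd9* among its leading genes, so that its transcripts went against the name of the class.

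All 6 stretches held resident-like macrophages, in unequal shares. They were 19.9% of the macrophages of stretch 4, 15.6% of stretch 1, 8.89% of stretch 3, 7.27% of stretch 2, 6.05% of stretch 6 and 4.93% of stretch 5, with 60, 146, 88, 124, 79 and 85 cells. Exact intervals of stretches 4 (15.6 to 24.9) and 1 (13.3 to 18.1) overlapped, and both lay above those of the other 4 stretches, the highest of which reached 10.8. The rule counts molecules, and resident-like macrophages of stretch 4 had a median of 29708 UMIs against 6923.5 to 10191 in the other stretches. After thinning to 2000 UMIs before the rule, 330 of 9429 cells (3.5%) were members, and after thinning to 5000 UMIs 375 of 7370 (5.09%). Cell barcodes listed more than once numbered 76, and 5 members carried such a barcode.

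The CD4/CD8-selected matrix holds cells from samples that played no part in choosing the members, and the same rule found 126 cells there, 0.55% of 22806 (exact 95% CI 0.46 to 0.66), beside 879 other macrophages. At least 2-fold higher in them were 447 of 10042 genes (4.45%) and lower 771 (7.68%). Of the 673 genes higher in the CD11c-selected cells and measured in both, 616 were on the same side of 1 and 263 were at least 2-fold higher there too, which is 39.1% of these and 60.2% of the 437 higher genes of the second matrix. Of 930 lower genes 847 were on the same side and 404 at least 2-fold lower (43.4% and 55.6%). Stretch 3 held 456 of the 879 other macrophages, and without it 600 genes were higher and 977 lower.

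Folds in the 2 matrices were close for some genes and far apart for others, a difference that was not tested. *Cd163* was at 26.2-fold in CD11c-selected and 41.4-fold in CD4/CD8-selected cells, *Ccl8* at 20.4- and 8.60-fold, *Ccl7* at 8.45- and 10.9-fold, *Il10* at 5.0- and 4.0-fold, *C4b* at 8.69- and 11-fold, *Mrc1* at 5.51- and 4.69-fold and *F13a1* at 11.3- and 6.32-fold. *Mmp9* was at 24.4- and 40.3-fold, *Cd209b* at 37.7- and 34.3-fold and *Clec10a* at 11- and 22.8-fold. *Cd209a*, at 1.24-fold in the CD11c-selected cells, was at 36.1-fold, and *Timd4* at 21.3-fold. Under 2-fold there were *Vsig4* (1.21), *Igf1* (1.06) and *Hmox1* (0.90), and *Folr2* was at 2.28-fold. *Itgax* (0.26) and *Il1b* (0.21) were low in both, whereas *H2-Ab1* was at 0.87-fold and *Spp1* at 0.65-fold. Median depth in the CD4/CD8-selected matrix was 10076.5 UMIs in resident-like and 19086 in other macrophages, against 8899.5 and 9492 in the CD11c-selected matrix. The tumors differed in stage and the cells in selection and depth, and these cannot be told apart here.

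**Figure D5:**
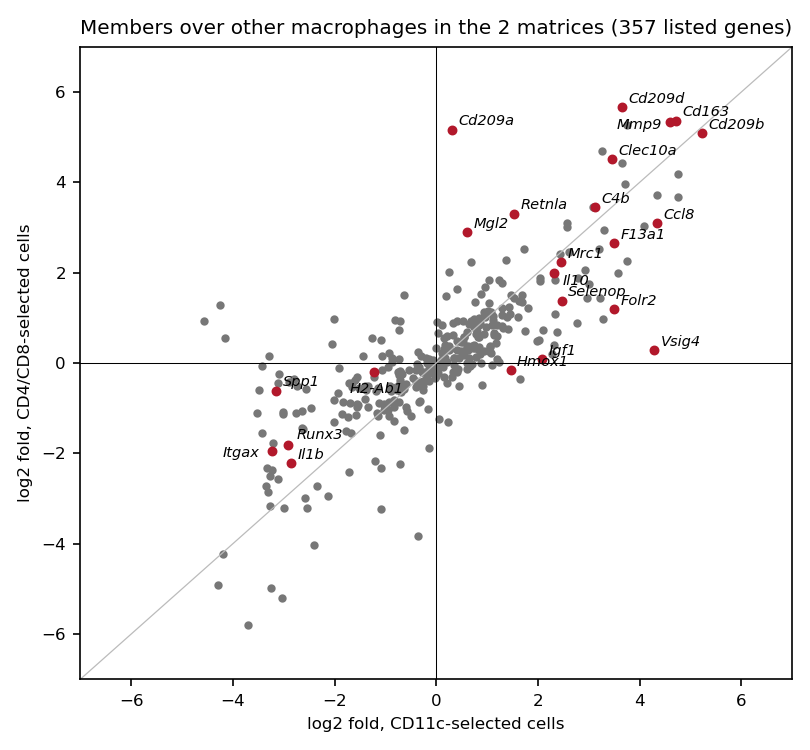
Log2 fold of resident-like over other macrophages in CD11c-selected cells (horizontal) and in CD4/CD8-selected cells (vertical) for 357 listed genes outside the rule with at least 50 UMIs in each matrix. Genes near the diagonal, such as *Mrc1* and *C4b*, have similar folds in both, while *Cd209a* lies far above it (1.24- and 36.1-fold) and *Vsig4* far below (19.5- and 1.21-fold).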

How the data were processed

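UMI counts per gene and cell, deposited by the authors as whole numbers without normalization, came in 1 matrix per selection. The submitters' processing notes name Cell Ranger 3.0.2 and mm10. Barcodes with fewer than 200 genes were left out (341 of 11980 CD11c-selected). The members and gene lists were chosen with earlier results of these data known. Folds are ratios of summed UMIs with exact conditional binomial intervals, for genes with at least 50 UMIs over both groups. Levels have exact Poisson and shares Clopper-Pearson intervals. The intervals were tested on simulated data. List medians take genes without UMIs in members at 3 UMIs. Named genes were the 20 highest and 10 lowest folds with at least 50 CPM, and list genes past 2-fold or defining a list. They also included chosen genes that the study names and the rule genes. Genes named from sub-clusters and those near a limit were chosen after their values were seen. T cells had at least 3 UMIs over 4 T cell genes and no *Csf1r* or *C1qa*. Scrublet, run once on the pooled CD11c-selected cells, marked 0 doublets, so none were removed, but this does not show that doublets were absent. Without the highest 5% of its scores, which held 13 members, 979 genes were higher and 1627 lower. Sub-clusters used the Leiden method at resolution 0.5. Some listed genes are not reported here. Planned genotype tests were not run, since the matrices used here do not map cells to samples. Promoters came from RefSeq (729 of the higher and 1121 of the lower genes matched) and positions from GENCODE M21 (446 of 447 genes). Python 3.11.15, numpy 2.4.6, scipy 1.17.1, scanpy 1.11.5, scikit-learn 1.9.0, leidenalg 0.10.2 and biopython 1.88 were used.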

Additional observations from a re-analysis of the deposited data

How the results depend on the processing

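The share of members, 5.0%, moved to 4.57% with at least 3 molecules of *Pf4*, 3.77% with a sum of at least 2 over the 4 genes and 3.5% after thinning each cell to 2000 UMIs, and was 5.09% after thinning to 5000 UMIs. The 985 higher and 1558 lower genes became 597 and 893 against other macrophages with at least 2 molecules of *Pf4*, 2309 and 5938 without a filter on UMIs, 1991 and 2718 at 1.5-fold and 391 and 875 at 3-fold. Without 1 stretch at a time they ranged from 912 to 1009 and from 1414 to 1682. In the CD4/CD8-selected cells the ranges were 377 to 600 and 658 to 977. Sub-clusters numbered 3 at resolution 0.3 and 8 at resolution 1.0. Against other macrophages without *Gpnmb* and *Mki67*, 932 genes were higher (802 shared with the 985) and 1161 lower (1052 shared with the 1558), and 5 named genes changed direction, *Fabp5* (1.33), *Arg1* (2.29), *Atp6v0d2* (1.96), *Cd5l* (4.74) and *Mmp8* (1.09). Leaving out the member cell with the most molecules of each gene left 861 genes higher and 2002 lower, a choice made after seeing the data. Of the 86 lower genes without a UMI in members, 56 would stay at least 2-fold lower at 3 UMIs. No paired analysis was possible because the matrices used here do not assign cells to samples. Depth limits rare transcripts, since 3 UMIs in all members are under 1 CPM.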

Other observations

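Genes past 2-fold in opposite directions in the 2 matrices were few: 7 were higher in the CD11c-selected and lower in the CD4/CD8-selected resident-like macrophages, and 10 the reverse. *Ighm*, which encodes an immunoglobulin heavy chain, was at 165 to 234 CPM over the stretches of resident-like macrophages and at 58.4 to 113 in other macrophages, 2.44-fold in sum and 3.42-fold in the CD4/CD8-selected cells. In T cells of the same matrix *Ighm* was at 135 CPM.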
